A study of Mus with 4 samples.

Results

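Ionotropic glutamate receptors are ion channels opened by glutamate. The 10 genes described here were taken by symbol from the gene list of the count matrices: Gria1, Gria2, Gria3, Gria4, Grik1, Grik2, Grik3, Grik4, Grik5 and Grin1. All 10 were found, each on 1 row. Their levels were measured in neuron subtypes and glia of mouse dorsal root ganglia (DRGs), in the naive state and after a chronic constriction injury (CCI), in which the sciatic nerve is loosely ligated.

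The receptors assemble as tetramers of subunits from the same family. The Gria genes encode the subunits of AMPA receptors, the fast excitatory channels of most synapses. Edited Gria2 subunits keep calcium from passing through the channel, and receptors without Gria2 let it pass. The Grik genes encode kainate receptors. Grik1, Grik2 and Grik3 encode subunits that form channels on their own, whereas the products of Grik4 and Grik5 need one of them as a partner. Grin1 encodes the subunit that every NMDA receptor must contain. Sensory neurons of the DRG release glutamate in the spinal cord, where receptors on their own terminals can act on release, and the cell bodies in the ganglion are wrapped by satellite glia, which take up glutamate.

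The 4 libraries came from L4 and L5 DRGs of wild-type male C57BL/6J mice of 6 to 8 weeks, 2 from naive mice (CON) and 2 from mice 3 d after CCI of the left sciatic nerve. CON mice had no sham operation, so ligation cannot be told apart from anaesthesia and surgery. Single-cell RNA sequencing with 10x Genomics 3' kits counted transcripts as unique molecular identifiers (UMIs), with which PCR copies of one molecule count once. Neither the labels nor the methods say how many mice went into a library. P-values of CCI against CON therefore reflect only how far libraries of a group differ, which may be technical. P-values of comparisons between classes of cells reflect how evenly a difference recurred across libraries, set against a spread estimated partly over all genes. The classes were themselves drawn from these cells. Levels are given as CPM, the UMIs of a gene per 1000000 UMIs of a class in a library. Because capture at the 3' end differs between genes, a level in CPM was compared within a gene across classes. Shares of the UMIs of a receptor family are also given, but they do not measure how much of each subunit a class holds. Sets of 4 values are given in the order CON replicate 1, CON replicate 2, CCI replicate 1 and CCI replicate 2.

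After quality control 35113 of 37451 barcodes remained, between 2613 and 11155 per library, with median UMI counts per cell from 2508 to 8352. CON replicate 2 had the fewest and deepest cells. Pairs of libraries shared 8 to 29 barcodes. The labels call the cells neurons, but only 3937 of the cells kept lay in clusters with neuron markers and a median UMI count not below that of the library. A further 8143 barcodes in clusters with neuron markers and lower median UMI counts were kept apart. Satellite glia-like cells numbered 8555, myelinating Schwann-like cells 3454 and non-myelinating Schwann-like cells 2862. The markers of a class were highest in that class in all 4 libraries for 5 of 6 neuron markers, 3 of 5 satellite glia markers, 6 of 6 myelinating and 2 of 5 non-myelinating Schwann cell markers. Of the non-myelinating Schwann-like cells, 1054 came from a cluster led by Gfap, G0s2 and Emp1. It had no marker of the class among its 10 leading genes, and 555 of its cells were from CCI replicate 2. Clustered without integration, the class held 373, 53, 577 and 650 cells in place of 662, 206, 787 and 1207. Clusters were named from marker genes and are called by the class name alone from here on. The 10 genes and the related glutamate genes listed further on were left out of the clustering features.

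Neurons fell into NP1 (Mrgprd+ non-peptidergic), NP2 (Mrgpra3+ non-peptidergic), SST (Sst+ and Nppb+ itch neurons), cLTMR1 (Th+ low-threshold mechanoreceptors), PEP1 (Tac1+ and Calca+ peptidergic), Trpm8 (cold-sensing), NF1 and NF2 (Nefh+ neurofilament) neurons and the CCI-induced CIP neurons. Cells per library ranged from 91 to 271 for NP1, 79 to 266 for PEP1, 31 to 105 for NF2 and 44 to 154 for cLTMR1. The cLTMR1 neurons had median UMI counts of 47651, 186107, 57246 and 7785. In CCI replicate 2, 89 of the 154 came from a cluster with a median UMI count close to that of the library. NP2, SST and Trpm8 neurons had at least 10 cells in each library. NF1 neurons had 3 cells in CON replicate 2 and only 2 of their 4 markers highest in their own class, so they are given as levels without a test. The NF1 cluster also met 3 of 4 markers of PEP2, another peptidergic class (mean log2 ratio to the other clusters 2.24, against 2.59 for NF1). The NF2 cluster also met 5 of 5 markers of NF3, another neurofilament class (2.72 against 3.93 for NF2). CIP neurons were named from Atf3, Sprr1a, Camk1, Flrt3 and Gpr151. PEP1 neurons joined 4 clusters, 3 of which had no PEP1 marker among their 10 leading genes. One of the 3, of 198 cells out of 798, was led by Mymk, Tmc3 and Dcn, a gene of fibroblasts, and results that change without it are given beside them.

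Each subtype was tested against the mean of the other subtypes with the quasi-likelihood test of edgeR on summed UMIs, the library as a block and p-values adjusted over all genes tested by the Benjamini-Hochberg method. NF2, NP1, PEP1 and cLTMR1 neurons had at least 20 cells in every library and were compared with each other. NP2, SST and Trpm8 neurons were compared within a wider set of all 7 subtypes. The narrower and the wider set have unlike references, so the size of a difference in one cannot be set against that in the other. These contrasts called 58.4% of all genes tested for NF2, 57.4% for NP1, 52.4% for PEP1, 48.3% for cLTMR1, 44.1% for NP2, 47.5% for SST and 46.3% for Trpm8. Of the 10 genes, 9 passed in NF2, 8 in NP1, 7 in PEP1, 9 in cLTMR1, 7 in NP2, 7 in SST and 9 in Trpm8 neurons. Clusters differed at a large share of all genes, and the clusters were drawn from the same cells, so the counts say little about these 10 genes in particular and the sizes of the differences are described instead.

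Of the kainate receptor genes, Grik1 had the widest range among subtypes. It spans 87895901 to 88290863 on chromosome 16 (GRCm38). Its level in NP1 neurons was 654, 510.1, 590.1 and 457 CPM. In cLTMR1 neurons it was 292, 238, 269 and 202 CPM. The lowest NP1 library lay above the highest cLTMR1 library, and the lowest cLTMR1 library lay above every library of the next class, NF2 neurons, which reached 60.1 CPM. PEP1, Trpm8, NF1 and SST neurons stayed at or below 17.0 CPM in the 4 libraries. On the log2 scale Grik1 differed by 4.00 ± 0.19 (SE) in NP1 (adjusted p = 1.77e-11) and by 2.22 ± 0.20 in cLTMR1 neurons (adjusted p = 5.49e-08). It was lower in PEP1 neurons than in NF2, NP1 and cLTMR1 neurons (log2 difference -4.77 ± 0.29), and lower in SST neurons within the wider set (-3.67 ± 0.35). These differences have unlike references, and the mean level was 7.14 CPM in PEP1 and 3.83 in SST neurons.

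The share of cells with a Grik1 UMI was also highest in NP1 neurons, with cLTMR1 neurons next. Cells under 2000 UMIs were left out (6, 21, 8 and 33 neurons and 248, 25, 199 and 67 satellite glia) and the others were thinned to 2000 UMIs. Grik1 was then detected in 75.3%, 65.9%, 73.4% and 61.0% of NP1 neurons and in 34.6%, 41.9%, 43.9% and 28.7% of cLTMR1 neurons. In PEP1 neurons the share was 2.63%, 1.39%, 1.53% and 1.58%, and in satellite glia it was 5.70%, 0.517%, 4.33% and 0.697%. In CCI replicate 1 the exact 95% binomial interval was 67.3% to 78.9% for NP1 and 0.418% to 3.86% for PEP1 neurons. Intervals cover counting error only. Without thinning the shares were 91.4% to 100% in NP1 neurons and 15.3% to 29.3% in PEP1 neurons.

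Grik4 was highest where Grik1 was close to its lowest. SST neurons held 65.0, 55.7, 57.0 and 37.5 CPM of Grik4. The next class, cLTMR1 neurons, held 35.3, 37.1, 40.3 and 33.6 CPM, and only CCI replicate 2 of SST fell within that range. Grik4 was lowest in Trpm8 neurons (10.8 ± 3.98, SD over 4 libraries) and NF2 neurons (12.6 ± 2.83). The log2 difference was 1.31 ± 0.10 in SST neurons (adjusted p = 2.19e-11), -1.45 ± 0.15 in Trpm8 neurons and -1.22 ± 0.12 in NF2 neurons. Of the kainate receptor UMIs, Grik1 took 91.9% in NP1 and 78.8% in cLTMR1 neurons (mean of 4 libraries), and Grik4 took 67.9% in SST neurons.

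Grik5, the other partner subunit, was the most even of the 10 genes. Its mean over 4 libraries lay between 19.3 CPM in SST neurons and 35.7 in NF1 neurons, and neighbouring classes overlapped throughout that order. No log2 difference in either set of subtypes was larger in size than the -0.46 ± 0.12 of SST neurons (adjusted p = 0.00237). The calls of Grik5 in PEP1 and Trpm8 neurons were lost without CCI replicate 1 (adjusted p = 0.0746 and 0.061). That in PEP1 neurons was also lost when cells were clustered without integration (0.179), and that in Trpm8 neurons without CON replicate 1 (0.13) or without the filter on low counts (0.0517). Grik5 overlaps Zfp574 only from base 25075674 to 25075694 of chromosome 7. Zfp574 had 1658 UMIs in neurons, and whether UMIs of one gene were counted for the other was not tested.

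Grik2 and Grik3 were low in neurons. Their levels in all neurons were 2.65, 2.06, 2.34 and 1.63 CPM for Grik2 and 1.75, 2.06, 1.75 and 1.73 for Grik3. Among subtypes, Grik2 was highest in NF2 neurons (12.5, 6.52, 8.04 and 7.75 CPM) and Trpm8 neurons (6.32, 9.60, 6.67 and 4.58). In cLTMR1 neurons Grik2 had 3 UMIs in all, 0, 2, 0 and 1, which is at the floor of 3 counts that a count of 0 leaves room for. Grik3 was highest in the same cLTMR1 neurons, with 6.43, 6.08, 3.62 and 4.77 CPM against at most 0.518 in NP1 neurons.

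Each of the 4 AMPA receptor genes had its highest mean in another named subtype. Gria1 (chromosome 11, 57011571 to 57330244) was highest in PEP1 neurons, at 55.4, 34.5, 45.9 and 32.8 CPM, above every library of the next class, Trpm8, which ranged from 8.54 to 32.5. Without the PEP1 cluster led by Mymk it was at 41.7, 26.0, 34.6 and 25.1, and the ranges overlapped, although PEP1 lay above Trpm8 within each library. It was near absent from SST neurons, with 1, 0, 3 and 2 UMIs in the 4 libraries. The log2 difference of Gria1 was 1.91 ± 0.13 in PEP1 neurons (adjusted p = 1.38e-09, and 1.53 ± 0.14 without that cluster) and -4.67 ± 0.41 in SST neurons (adjusted p = 3.28e-10).

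Gria2 (chromosome 3, 80681450 to 80804227) was highest in Trpm8 neurons, at 85.5, 67.2, 67.0 and 39.0 CPM. NF2 neurons came next at 60.1, 33.2, 27.0 and 18.6, and the ranges overlapped, although Trpm8 lay above NF2 within each of the 4 libraries. SST neurons were lowest at 4.31, 2.06, 2.61 and 0.971 CPM. The log2 difference was 2.49 ± 0.15 in Trpm8 neurons (adjusted p = 1.33e-13) and -2.83 ± 0.26 in SST neurons (adjusted p = 7.29e-10).

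Gria3 (chromosome X, 41400819 to 41678601) was higher in 3 subtypes than in 4 others, with NF1 neurons between. NF2 neurons held 40.7, 33.2, 13.9 and 14.1 CPM, Trpm8 neurons 30.6, 31.0, 22.4 and 13.0, and cLTMR1 neurons 15.1, 11.1, 12.4 and 13.4. NP1, NP2, PEP1 and SST neurons did not exceed 2.04 CPM in any library. The highest of these 4 subtypes thus stayed below the lowest library of NF2, Trpm8 and cLTMR1 neurons. NF1 neurons ranged from 1.73 to 12.7 CPM and overlapped both sides. The low subtypes were not at 0, with 31 UMIs in NP1 and 36 in PEP1 neurons. Gria3 differed by 3.55 ± 0.23 on the log2 scale in NF2, 3.14 ± 0.22 in Trpm8, 2.45 ± 0.23 in cLTMR1 and -3.17 ± 0.33 in NP1 neurons.

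Gria4 (chromosome 9, 4417893 to 4796234) had its highest means over the 4 libraries in NF1 and NF2 neurons. NF1 neurons held 52.0, 34.7, 27.1 and 24.9 CPM and NF2 neurons 46.7, 48.6, 17.0 and 18.2. The rank of NF2 neurons rested on the CON libraries. In CCI their mean (17.57 CPM) lay below the means of PEP1 (20.03) and NP2 neurons (18.48). Gria4 was low in NP1 neurons (4.66, 3.04, 3.06 and 1.20) and in cLTMR1 neurons (4.56, 4.71, 2.49 and 5.72), the same pair of subtypes that was high in Grik1. The log2 difference was 2.05 ± 0.19 in NF2 neurons (adjusted p = 9.24e-08) and -2.11 ± 0.23 in NP1 neurons (adjusted p = 4.88e-07).

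Grin1 (chromosome 2, 25291177 to 25319187) was found in every neuron subtype. Mean levels were 66.4 ± 27.6 CPM in NF1, 64.9 ± 17.0 in NF2, 58.7 ± 17.1 in Trpm8, 50.5 ± 11.8 in PEP1, 33.5 ± 5.98 in cLTMR1, 27.4 ± 7.94 in NP2, 24.2 ± 2.76 in SST and 21.6 ± 1.25 in NP1 neurons (SD over 4 libraries). Each subtype overlapped with the next in this order. NP1 neurons, from 19.8 to 22.6, lay below every library of NF1, NF2, Trpm8, PEP1 and cLTMR1 neurons. Grin1 was higher in NF2 neurons (log2 difference 0.91 ± 0.10, adjusted p = 2.92e-07) and lower in NP1 neurons (-0.93 ± 0.10, adjusted p = 3.89e-07).

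**Figure D1:**
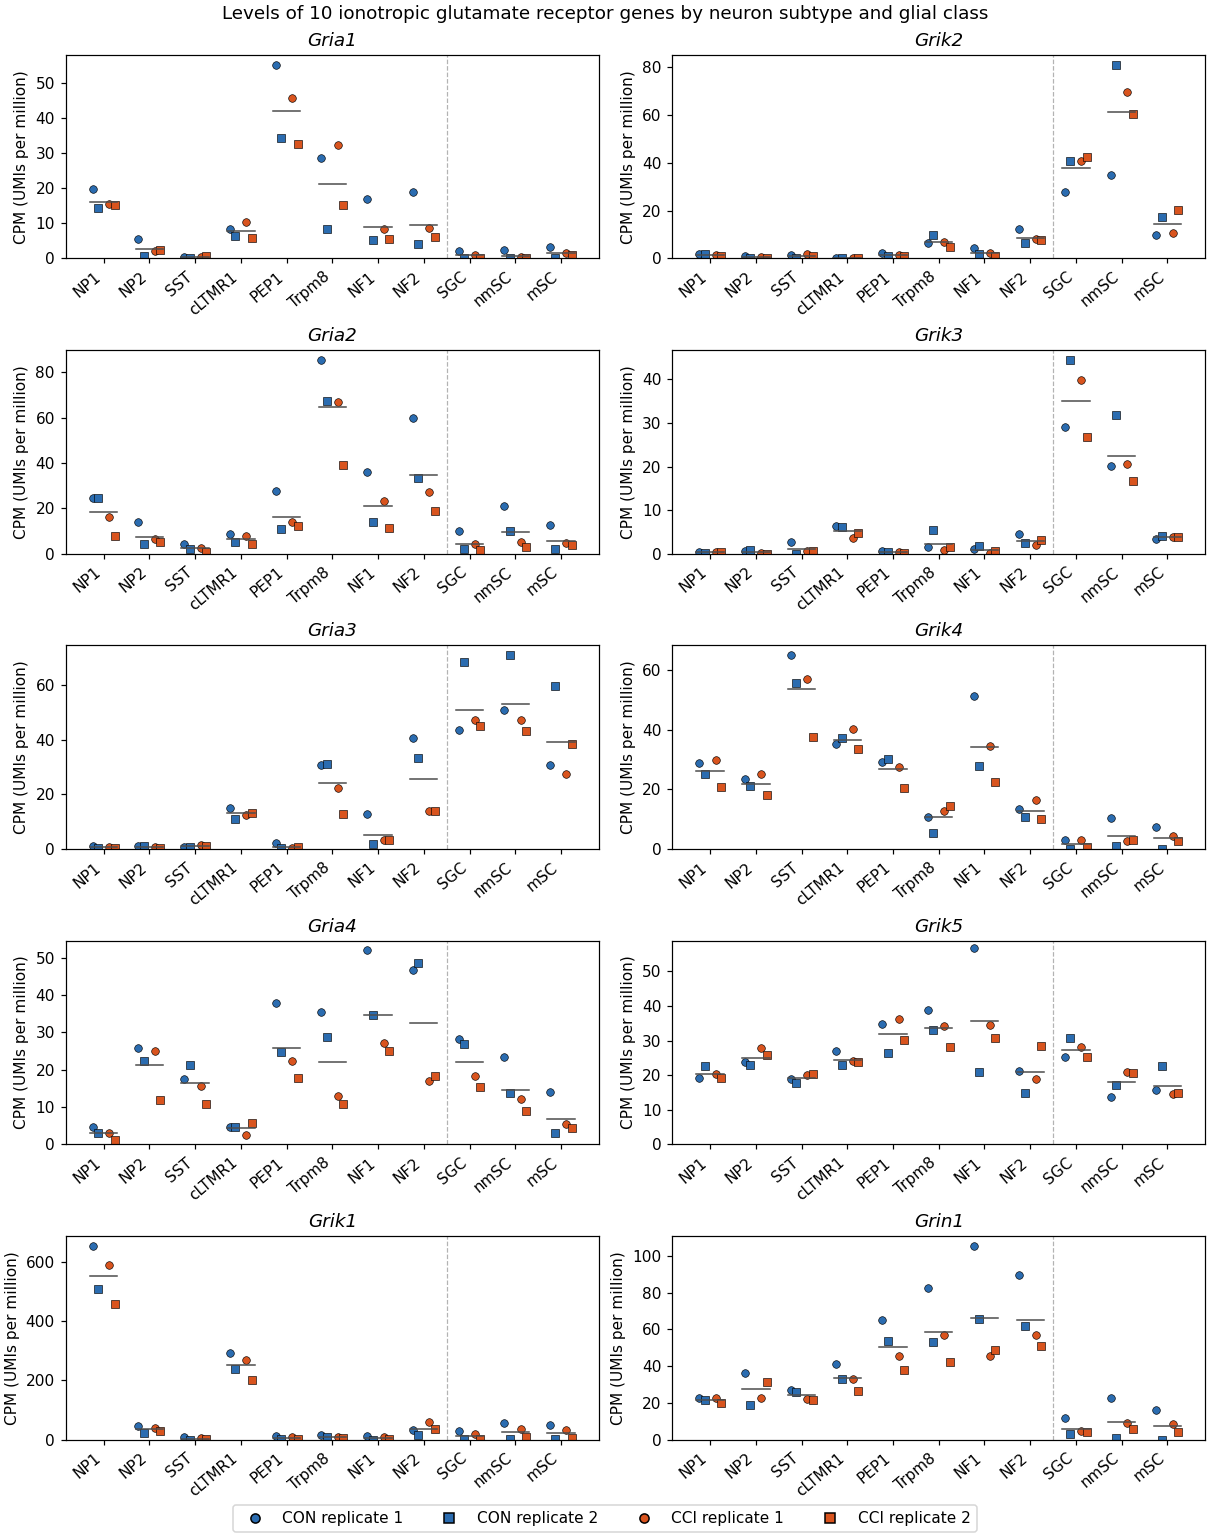
Level of each of the 10 genes in CPM (y axis, linear) by neuron subtype and glial class (x axis, with SGC for satellite glia, nmSC and mSC for non-myelinating and myelinating Schwann cells), 1 point per library and a bar at the mean of the 4 libraries. Grik1 stands out in NP1 and cLTMR1 neurons, Gria1 in PEP1, Gria2 in Trpm8 and Grik4 in SST neurons, whereas Grik2 and Grik3 lie higher in satellite glia and non-myelinating Schwann cells than in each neuron subtype.

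Several of the smaller differences rested on single libraries or on the set of subtypes compared. Gria1 and Gria2 were higher in NP1 neurons (log2 0.37 ± 0.14 and 0.42 ± 0.16), and these calls were lost without CON replicate 2 (adjusted p = 0.0974 and 0.3). Gria1 also lost its call without CCI replicate 2 (adjusted p = 0.227) and with upper-quartile factors (0.0539). Gria2 also lost it without CON replicate 1 (0.0582) or CCI replicate 1 (0.0684), with DESeq2 (0.0644), with upper-quartile factors (0.0517), with clusters without integration (0.382) and without the PEP1 cluster led by Mymk (0.0565). In NP2 neurons the calls of Grik2, Grik3 and Grin1, all lower, were each lost without some of the libraries. Grik2 was lost without CON replicate 2, CCI replicate 1 or CCI replicate 2 (adjusted p = 0.108, 0.0616 and 0.0608), Grik3 without CON replicate 1, CCI replicate 1 or CCI replicate 2 (0.0794, 0.11 and 0.0847), and Grin1 without CON replicate 2 or CCI replicate 1 (0.146 and 0.151). Grik3 was also lost with clusters without integration (0.0768), as was Grin1 in PEP1 neurons (0.244). Without CCI replicate 1, 4 of 10 genes in place of 7 passed in NP2 neurons, where 35.8% of all genes were called. Gria4 in Trpm8 neurons (0.56 ± 0.21) was lost without either CON replicate 1 or CON replicate 2 (adjusted p = 0.323 and 0.11). When NF2 neurons were compared with all 7 subtypes in place of 4, the differences of Gria1 and Grik1 turned from -0.98 to 0.30 and from -1.45 to 0.22, and Gria1 in cLTMR1 neurons turned from -1.31 to 0.026. The call of Grin1 in cLTMR1 neurons was lost there (adjusted p = 0.138).

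The make-up of the AMPA receptor UMIs varied among the subtypes and is given without a test. Gria4 made up 80.1% of the UMIs of Gria1 to Gria4 in SST neurons and 66.8% in NP2 neurons (mean of 4 libraries). Gria1 made up 50.3% in PEP1 neurons, but without the cluster led by Mymk Gria4 had more UMIs than Gria1 in CON (342 and 136 against 319 and 133) and fewer in CCI (278 and 179 against 370 and 233). In NP1 neurons Gria1 and Gria2 took nearly all, with 44.9% and 46.1%, but their order changed between libraries: Gria2 was 58.1% in CON replicate 2 and 31.7% in CCI replicate 2. Gria3 led in cLTMR1 neurons with 41.2%, Gria2 in Trpm8 neurons with 49.2%, and Gria4 in NF1 neurons with 51.4%. NF2 neurons were mixed, with 34.3% Gria2, 31.6% Gria4 and 24.4% Gria3. The share of Gria2 ranged from 11.8% in SST to 49.2% in Trpm8 neurons. The make-up rested on 245 UMIs in SST neurons, 437 in NP2 neurons and 658 to 3556 in the other subtypes. Shares of genes with unequal capture can be compared between classes, but do not give the subunit ratio of a receptor.

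**Figure D2:**
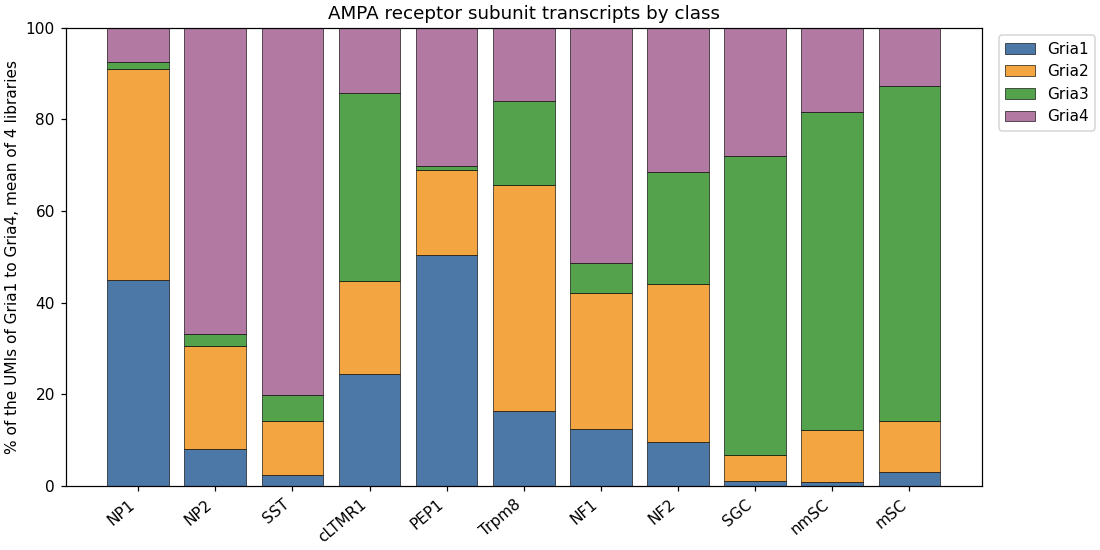
Share of the UMIs of Gria1, Gria2, Gria3 and Gria4 taken by each gene (y axis, percent, mean of 4 libraries) in 8 neuron subtypes and 3 glial classes (x axis, labelled SGC, nmSC and mSC for satellite glia and non-myelinating and myelinating Schwann cells). Gria4 fills most of the SST bar (80.1%) and Gria3 most of each glial bar (65.3% in satellite glia).

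Satellite glia, the cells around each sensory neuron, held some kainate and AMPA receptor transcripts at levels above neurons. Grik2 was at 27.8, 40.7, 40.6 and 42.2 CPM in satellite glia. Grik3 was at 29.1, 44.4, 39.8 and 26.7, and Gria3 at 43.6, 68.2, 47.0 and 45.0, against 8.01, 7.06, 4.09 and 3.80 in all neurons. For these 3 genes every satellite glia library lay above every neuron library. Gria4 was at 28.3, 26.8, 18.3 and 15.3 CPM in satellite glia against 21.2, 15.9, 12.1 and 9.86 in neurons, higher within each library, and Grik5 at 25.3, 30.8, 28.3 and 25.2 against 26.7, 23.5, 24.3 and 23.3.

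In the paired test of satellite glia against neurons, 4 of the 10 genes were higher, 5 were lower and 1 did not pass, where 74% of all genes tested were called. The log2 differences were 4.24 ± 0.25 for Grik2 (adjusted p = 4.97e-05), 4.35 ± 0.15 for Grik3 (1.27e-05), 3.32 ± 0.23 for Gria3 (8.85e-05) and 0.72 ± 0.11 for Gria4 (0.00165). Gria1 (-4.67 ± 0.53), Gria2 (-2.07 ± 0.28), Grik1 (-4.16 ± 0.69), Grik4 (-3.98 ± 0.55) and Grin1 (-2.61 ± 0.28) were lower. Grik5 did not pass (0.28 ± 0.11, adjusted p = 0.058). These differences are relative to all UMIs of a cell, and neurons held far more of them. Per cell, satellite glia held 2.06 times the Grik2 and 2.20 times the Grik3 UMIs of neurons, about the same Gria3 (0.376 against 0.357 UMIs per cell) and fewer of Gria4 (0.155 against 0.894). In cells thinned to 2000 UMIs, Grik2 was found in 5.97%, 8.57%, 7.54% and 7.11% of satellite glia against 0% to 1.25% of neurons. The 0% stands for 0 of 955 thinned neurons in CCI replicate 2, which allows a share of up to 0.386% with a UMI at this depth. Without thinning a Grik2 UMI was found in 7.79% to 13.4% of neurons and 10.0% to 34.0% of satellite glia.

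Droplets can carry RNA from other cells or hold more than one cell, so neuron markers were read in glia as well. No doublet caller was run, and the source of their UMIs was not tested. As a percentage of their level in neurons, Rbfox3, Snap25, Tubb3, Uchl1, Stmn2 and Scn9a reached 13.5% to 46.0% in satellite glia of CON replicate 1, 1.08% to 4.32% in CON replicate 2, 10.9% to 36.3% in CCI replicate 1 and 4.47% to 16.5% in CCI replicate 2. Pvalb, an NF2 marker, stood at 242%, 11.3%, 226% and 83.0%. Grik1 in satellite glia moved with these markers, at 30.4, 1.81, 18.6 and 2.80 CPM, and was within or below the range of the 6 markers in each library. So was Grik4, and Gria1 was below the range in all 4 libraries. Gria3, Grik2 and Grik3 were at least 544% of neurons in each library and Gria4 and Grik5 at least 94.7%, and these 5 genes were also high in CON replicate 2, where the markers were lowest. Gria4 and Grik5 were above the 6 markers in each library. They were above Pvalb in CON replicate 2 and CCI replicate 2, but below it in CON replicate 1 and CCI replicate 1. Gria2 and Grin1 were at 10.7% and 7.78% of neurons in CON replicate 2, above the 6 markers but not above Pvalb, and what part of their UMIs came from neurons was not tested.

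**Figure D3:**
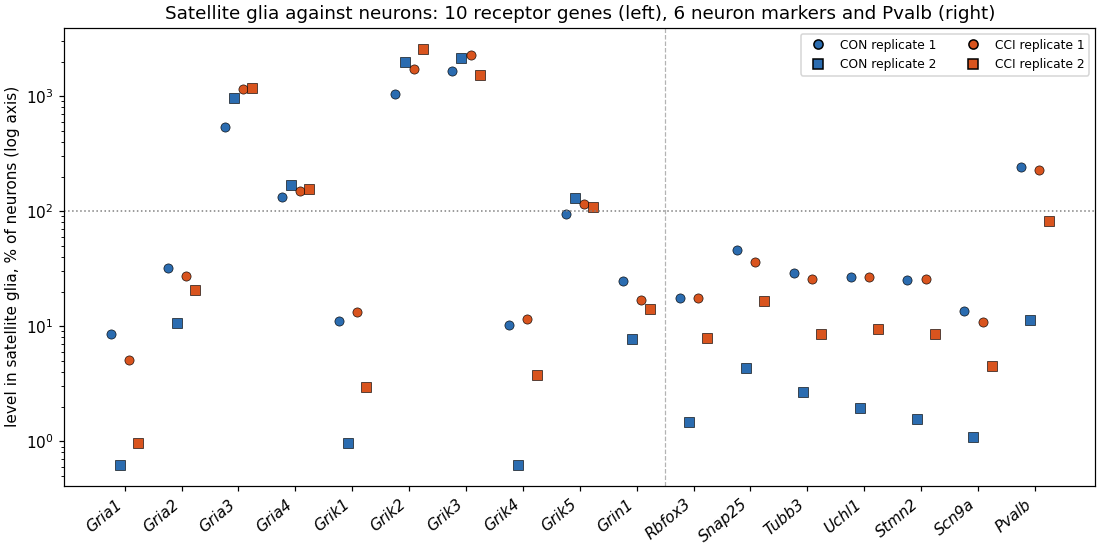
Level in satellite glia as a percentage of the level in neurons (y axis, log scale, dotted line at 100%) for the 10 receptor genes, 6 neuron markers and Pvalb (x axis), 1 point per library. Grik2, Grik3 and Gria3 lie above 500% in all 4 libraries, whereas the 6 neuron markers lie between 1.08% and 46.0%.

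The glial classes differed from each other in the same genes. In the comparison of each glial class with the other 2, 8 of 9 genes tested passed in satellite glia (50.2% of all genes called), 3 of 9 in non-myelinating Schwann cells (25.7%) and 5 of 9 in myelinating Schwann cells (33.4%). Gria1 was too low in glia to be tested. Grik3 was highest in satellite glia (log2 2.05 ± 0.11, adjusted p = 4.22e-09), at 22.3 ± 6.54 CPM in non-myelinating and 3.80 ± 0.33 in myelinating Schwann cells. Grik2 was highest in non-myelinating Schwann cells (34.7, 80.8, 69.3 and 60.1 CPM, log2 1.23 ± 0.14, adjusted p = 1.63e-05) and lowest in myelinating Schwann cells (9.66, 17.5, 10.8 and 20.3, log2 -1.77 ± 0.16). Satellite glia led in Gria4 (1.26 ± 0.15, adjusted p = 1.05e-05) and Grik5 (0.77 ± 0.12, adjusted p = 6.85e-05).

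Gria3 was detected in the 3 glial classes. It was at 50.8, 70.8, 47.3 and 43.3 CPM in non-myelinating and 30.8, 59.6, 27.4 and 38.5 in myelinating Schwann cells, and fibroblasts held 37.6, 44.7, 35.9 and 33.9. In CON replicate 1 Gria3 was at 385% of its level in neurons in myelinating Schwann cells, where the 6 neuron markers were at 25.1% to 81.1% and Pvalb at 438%, so no receptor gene was above all these genes there. Its small differences (0.33 ± 0.09 in satellite glia and -0.44 ± 0.11 in myelinating Schwann cells) were lost without CON replicate 1 (adjusted p = 0.0665 and 0.072) and without CCI replicate 1 (0.0684 and 0.0739), and that in satellite glia with clusters without integration (0.223). Without single libraries the lower levels of Gria2 in satellite glia (lost without each of the 4, adjusted p from 0.0579 to 0.0907, and with the stricter cell filter, 0.0603), Grik4 in satellite glia (without CON replicate 1 or CCI replicate 2, 0.079 and 0.0817) and Grik5 in myelinating Schwann cells (without CON replicate 1, CCI replicate 1 or CCI replicate 2, 0.0574 to 0.201, with DESeq2, 0.0757, and with the stricter cell filter, 0.067) were also lost. In satellite glia 5 genes passed without CON replicate 1 or without CCI replicate 1 (43.2% and 40.4% of all genes called), and in myelinating Schwann cells 3 did (27.6% and 26.1%). Grik1 was called higher in non-myelinating Schwann cells (0.49 ± 0.15), the class where the 6 neuron markers were at 32.6% to 109% of their level in neurons in CON replicate 1 (median 61.7%). The call was lost without CON replicate 1, CCI replicate 1 or CCI replicate 2 (adjusted p = 0.064, 0.118 and 0.125) and with clusters without integration (0.0728).

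The comparison of CCI with CON asked whether injury changed the receptor genes in neurons as a whole. None of the 10 genes passed the test, where 4.85% of all genes tested were called, 753 of 15527. In neurons Gria3 stood at 8.01 and 7.06 CPM in CON and 4.09 and 3.80 in CCI (log2 fold change -0.86 ± 0.21, edgeR adjusted p = 0.0551). Grik1 was at 273 and 188 against 141 and 94.6 (-0.89 ± 0.23, adjusted p = 0.0726), Gria4 at 21.2 and 15.9 against 12.1 and 9.86 (-0.68 ± 0.21, adjusted p = 0.121), Gria2 at 31.5 and 17.8 against 15.2 and 8.75 (-0.97 ± 0.30, adjusted p = 0.131), and Grin1 at 47.2 and 37.3 against 29.1 and 28.1 (-0.48 ± 0.18, adjusted p = 0.195). These 5 genes and Grik4 had both CCI libraries below both CON libraries, as did 29.1% of all genes tested, and none of the 10 had both above. The other log2 fold changes were -0.34 ± 0.19 for Grik4, -0.16 ± 0.26 for Gria1, -0.18 ± 0.30 for Grik2, -0.05 ± 0.30 for Grik3 and 0.00 ± 0.17 for Grik5. The median was -0.41 over the 10 genes and -0.02 over all genes.

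The number of calls in neurons depended on the test and on single libraries. DESeq2 called 3 genes, Gria2, Gria3 and Grik1 (adjusted p = 0.03, 0.0335 and 0.00678), and 6.02% of all genes. EdgeR without the filter on low counts called these and Gria4, and 7.62% of all genes. Without CON replicate 2 the same 4 genes passed, with adjusted p from 1.98e-06 to 0.0237, and 10.2% of all genes. Without CCI replicate 1 Gria2 and Grik1 passed (0.0212 and 0.0471, 4.04% of all genes), without CON replicate 1 Grik1 passed (0.0497, 9.35%), and without CCI replicate 2 none did (4.1%).

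The make-up of the neurons moved with these levels. CIP neurons were 0.358% and 0.327% of neurons in CON and 22.4% and 18.9% in CCI. NP1 neurons, where Grik1 is highest, were 24.2% and 29.7% of neurons in CON and 15.6% and 15.3% in CCI. As a share of the neurons other than CIP, NP1 took 24.3% and 29.8% in the CON libraries against 20.1% and 18.9% after CCI. With CIP neurons left out, the log2 fold changes were smaller: -0.56 for Gria3 (adjusted p = 0.459), -0.56 for Grik1 (0.512), -0.38 for Gria4 (0.743), -0.63 for Gria2 (0.63) and -0.24 for Grin1 (0.854). Within NP1 neurons Grik1 had CON levels of 654 and 510.1 and CCI levels of 590.1 and 457 CPM, and the groups overlapped. Sums over all neurons join changes in the share of a subtype with changes within it, and what part each had was not tested.

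Within the subtypes tested for CCI, which were NF2, NP1, PEP1 and cLTMR1 neurons, 2 genes passed, both in NF2 neurons. Gria3 was at 40.7 and 33.2 CPM in CON and at 13.9 and 14.1 in CCI (log2 -1.30 ± 0.30, adjusted p = 0.012). Gria4 was at 46.7 and 48.6 in CON and at 17.0 and 18.2 in CCI (-1.33 ± 0.29, adjusted p = 0.00654). In NF2 neurons 4.28% of all genes tested were called, and 0.597% were called lower. Grik1 in the same cells was at 34.2 and 14.2 in CON and 60.1 and 36.1 in CCI (1.07 ± 0.34, adjusted p = 0.0882), and Gria2 was at 60.1 and 33.2 against 27.0 and 18.6 (-0.93 ± 0.31, adjusted p = 0.107). The 2 calls rested on 31 to 105 cells and 56 to 101 UMIs per library. The call of Gria3 was lost without CCI replicate 1 (adjusted p = 0.0613) and with DESeq2 (0.0554), and neither gene passed when cells were clustered without integration (-0.53 for Gria3 and -0.73 for Gria4, adjusted p = 0.999).

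No gene passed in NP1 neurons, where 0.374% of all genes were called, in PEP1 neurons (0.0707%) or in cLTMR1 neurons (0.0887%). Of the 10 genes, 8 could be tested in NP1 and in PEP1 and 9 in cLTMR1 neurons. Without the PEP1 cluster led by Mymk none passed in PEP1 neurons either (0.0571% of all genes). CCI was not tested within NP2, SST, Trpm8 and NF1 neurons. Trpm8 neurons numbered 81, 13, 92 and 29 cells. Their mean of Gria4 was 32.1 ± 4.70 CPM in CON and 11.9 ± 1.66 in CCI (SD over the libraries of a group). That of Gria3 was 30.8 ± 0.24 and 17.7 ± 6.68. The means of Gria1 (18.6 ± 14.2 and 23.9 ± 12.1, with the groups overlapping) and Grik4 (8.01 ± 3.79 and 13.6 ± 1.26) were higher in CCI there. How many of all genes differed as much in Trpm8 neurons was not counted. Gria2 in NP1 neurons was at 24.8 and 24.8 CPM in CON and 16.1 and 7.70 in CCI (log2 -1.01 ± 0.28, adjusted p = 0.279), and it passed without CCI replicate 1 (-1.57, adjusted p = 0.015). A test of whether the CCI effect differed between NF2, NP1, PEP1 and cLTMR1 neurons called 1.04% of all genes and none of the 10, with adjusted p from 0.358 for Grik1 to 0.992 for Grik3. The lower levels of Gria3 and Gria4 in NF2 neurons after CCI were therefore not shown to differ from the effect in the other subtypes (adjusted p = 0.48 and 0.685).

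**Figure D4:**
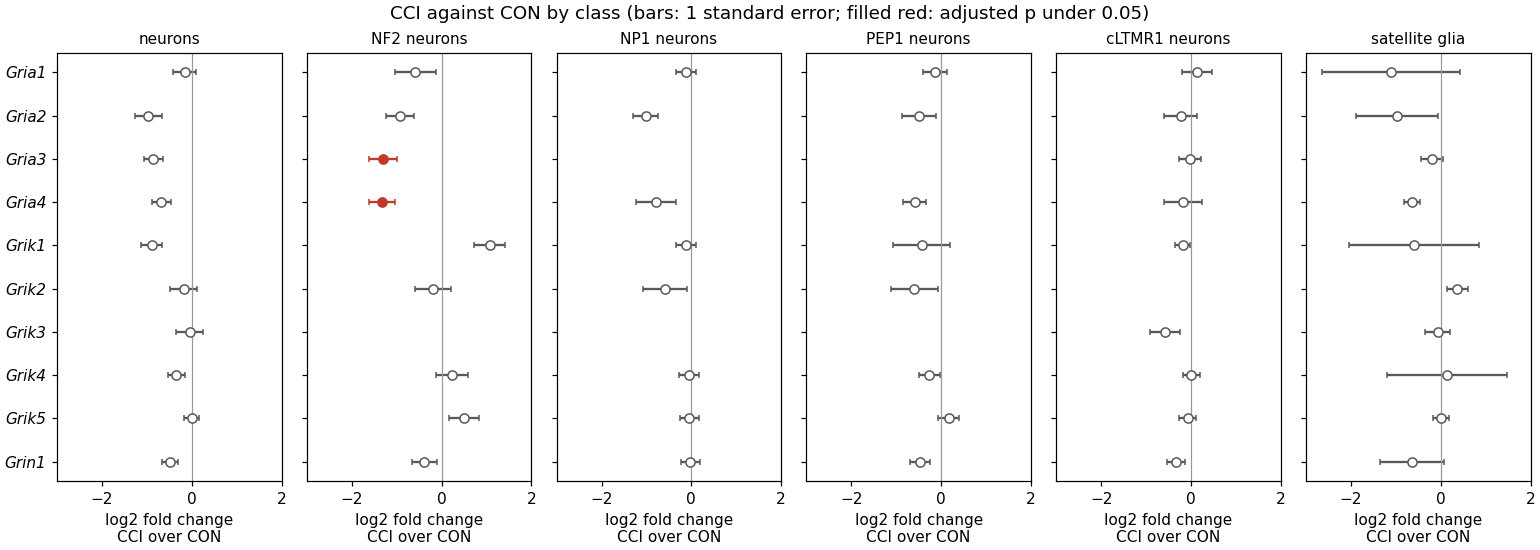
Log2 fold change of CCI over CON (x axis) for each gene (y axis) in all neurons, 4 neuron subtypes and satellite glia, with bars of 1 standard error and red filled points at an adjusted p under 0.05. The 2 filled points are Gria3 and Gria4 in NF2 neurons, and genes with too few counts have no point.

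In glia no gene passed after CCI. EdgeR called 0% of all genes in satellite glia, 0% in myelinating and 0% in non-myelinating Schwann cells, and 397 of 13123, 251 of 10773 and 184 of 10451 genes had an unadjusted p under 0.05. All 10 genes could be tested in satellite glia, 7 in myelinating and 8 in non-myelinating Schwann cells. The groups overlapped for 9 of 10 genes in satellite glia, and did not overlap for 30.4% of all genes tested. Grik2 in satellite glia was at 27.8 and 40.7 CPM in CON and 40.6 and 42.2 in CCI, and Grik3 at 29.1 and 44.4 against 39.8 and 26.7. Gria4 in satellite glia had CCI levels of 18.3 and 15.3 below CON levels of 28.3 and 26.8 CPM, without a call.

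CIP neurons were compared with the other neurons of the same CCI library. They numbered 342 and 187 cells in CCI replicates 1 and 2, against 4 and 1 in CON. Of the 10 genes, 7 were lower and 1 was higher in CIP neurons, where 58.7% of all genes tested were called and 30.3% were called lower. Without the library block 31.5% of all genes were called. The fit held 4 sums from 2 libraries, so its very small p-values rest largely on a spread estimated over all genes. Gria2 was at 3.15 and 1.92 CPM in CIP neurons against 20.3 and 11.3 in the other neurons (log2 -2.43 ± 0.16, adjusted p = 3.24e-32). Grik1 was at 37.7 and 18.7 in CIP neurons against 185 and 123 in the others (-2.28 ± 0.09, adjusted p = 3.9e-53). Gria3 (-1.94 ± 0.25), Gria4 (-1.91 ± 0.15), Grin1 (-1.37 ± 0.10), Grik4 (-0.98 ± 0.10) and Grik5 (-0.47 ± 0.10) were lower as well.

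Gria1 and Grik3 went another way. Gria1 was at 14.5 and 16.6 CPM in CIP neurons against 20.7 and 16.1 in the others (-0.06 ± 0.11, adjusted p = 0.681), and the 2 libraries differed in direction. Grik3 was at 3.77 and 2.94 in CIP neurons against 0.884 and 1.28 (1.88 ± 0.28, adjusted p = 1.03e-09). Grik2 did not pass (-0.43 ± 0.29). Gria1 made up 64.1% and 74.4% of the AMPA receptor UMIs of CIP neurons in the 2 libraries against 33.3% and 36.0% in the other neurons. Gria2 made up 13.9% (exact 95% interval 11.2% to 17.0%) and 8.62% (5.89% to 12.1%) against 32.8% and 25.2%.

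With a CCI library left out, the CIP neurons of the other CCI library were compared with the other neurons of that library and of CON. The calls of Grik3 and Grik5 were then lost (Grik3 adjusted p = 0.137 without CCI replicate 1 and 0.077 without CCI replicate 2, Grik5 0.31 and 0.205). The other 6 calls held in all 10 alternatives, including without a CIP cluster whose leading genes were neutrophil genes such as Camp and S100a9. CIP neurons are set here against a mixture of subtypes, and the subtype that each CIP neuron came from was not determined, so a change within a cell and a different origin cannot be told apart.

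**Figure D5:**
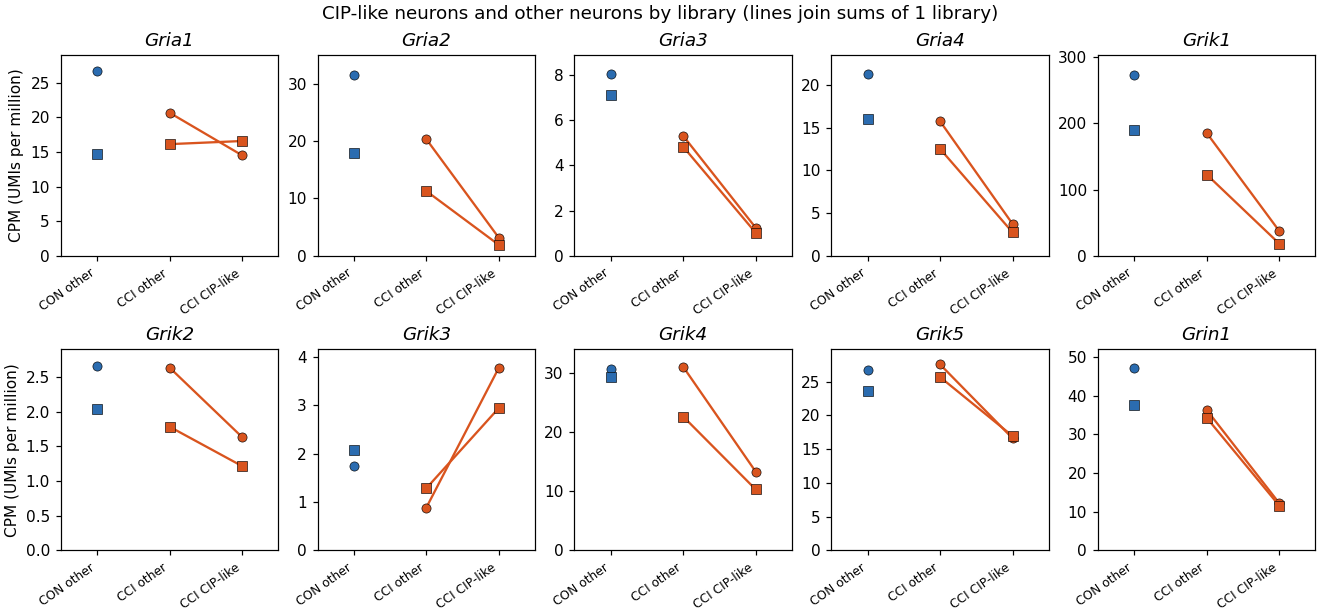
Level of each gene in CPM (y axis, linear, from 0) in the other neurons of CON (blue) and CCI (orange) and in CIP neurons of CCI (orange), with circles for replicate 1, squares for replicate 2 and lines that join sums of 1 library. The lines fall in both libraries for 8 genes, rise for Grik3 and cross for Gria1.

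The other genes of glutamate signalling were read from 6 lists. After CCI in neurons 7 genes of these lists passed, where 4.85% of all genes tested were called. Among auxiliary subunits of AMPA and kainate receptors 2 of 15 rose, Shisa9, an AMPA receptor protein (log2 2.65 ± 0.30, adjusted p = 0.00147) from 0.771 and 0.839 to 4.24 and 5.30 CPM, and Neto1, a partner of kainate receptors (1.93 ± 0.26, adjusted p = 0.00349), from 4.40 and 7.02 to 21.8 and 19.6. Of 15 scaffold genes only Grip2 rose (1.16 ± 0.27). Of 12 transport and synthesis genes Slc1a4, a neutral amino acid transporter (1.29 ± 0.20), and Glul, glutamine synthetase (0.83 ± 0.17), rose, and Slc17a8, a vesicular glutamate transporter, fell (-1.31 ± 0.29). Glul, Grip2, Slc17a8 and Adarb1 did not pass without CCI replicate 1 (adjusted p = 0.149, 0.208, 0.108 and 0.0942), and Glul not without CCI replicate 2 (0.127). Of 3 genes for RNA editing Adarb1, the enzyme that edits Gria2 transcripts, rose (1.05 ± 0.21, adjusted p = 0.023). None of the 5 metabotropic receptor genes tested of 8 and none of the 5 other NMDA and delta receptor genes tested of 8 passed. The list medians ran from -0.22 to 0.01.

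In CIP neurons the same 7 genes differed in the same directions, in a comparison that shares the CCI cells. Adarb1 was at 89.6 and 73.4 CPM against 24.7 and 19.7 in the other neurons (log2 2.08 ± 0.09), and Neto1 at 48.8 and 43.2 against 10.1 and 10.8 (2.34 ± 0.10). Shisa9 (3.92 ± 0.18), Grip2 (1.80 ± 0.19), Glul (1.89 ± 0.09) and Slc1a4 (1.44 ± 0.09) were higher, and Slc17a8 was lower (-5.83 ± 0.38). With CIP neurons left out of the CCI comparison, none of the 7 passed, where 1.11% of all genes were called. The log2 fold changes were then 0.077 for Glul, 0.20 for Adarb1, 0.45 for Shisa9, 0.48 for Grip2, 0.77 for Slc1a4, 0.90 for Neto1 and -0.90 for Slc17a8. Set against the 58.7% of all genes called in CIP neurons, 8 of 14 auxiliary subunits tested were called, 3 higher and 5 lower, among them Cacng5 (-2.79 ± 0.25) and Cacng3 (-3.82 ± 0.44). Of 15 scaffolds 2 were higher and 7 lower, with Homer3 higher (1.75 ± 0.15) and Shank1 (-3.40 ± 0.32) and Dlg2 (-1.38 ± 0.16) lower.

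Of the 5 other NMDA and delta receptor genes tested in CIP neurons 3 were lower and none was higher. Grin3a (-1.16 ± 0.11) and Grin2d (-1.71 ± 0.26) were lower, and Grin2c was called lower from levels under 1 CPM. Of the 4 metabotropic receptors tested 3 were lower, Grm4 (-3.38 ± 0.36), Grm8 (-3.07 ± 0.35) and Grm5 (-1.92 ± 0.55). Of 12 transport genes 3 were higher and 5 lower, and Slc17a7, another vesicular glutamate transporter, was at 2.37 and 1.54 CPM against 24.1 and 32.9 (-3.56 ± 0.15). Of the editing genes Adar was higher (0.47 ± 0.10) and Adarb2 lower (-3.93 ± 0.99), the latter at under 1 CPM. List medians were -2.50 for metabotropic receptors, -1.16 for the other NMDA and delta receptor genes, -1.18 for the 10 genes and -0.01 for all genes.

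The genes with the most similar pattern were sought for the 3 members with the most UMIs in neurons. Over 28 sums of 7 subtypes and 4 libraries, and among 10161 genes, Grik1 was most like Ms4a3 (Pearson r = 0.930), Klhl5 (0.922) and Pex14 (0.920) on the log2 scale. Grin1 was most like Pcdh9 (0.921), Pcdh11x (0.920) and Rimbp2 (0.915), and Grik4 most like Elf1 (0.895), Nedd4l (0.865) and Rab3d (0.864). Among the 10 genes the highest values were 0.80 for Gria2 with Grik2 and 0.79 for Gria3 with Grik3, and the lowest was -0.77 for Gria2 with Grik4. The 28 sums share libraries and depth within a library and are given as a description.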

How the data were processed

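The deposited files hold raw UMI counts per gene and barcode, 1 matrix per library. The authors trimmed the reads of the 10x 3' libraries with fastp and made the counts with Cell Ranger on the mouse genome mm10 with Ensembl annotation. From these counts, barcodes with over 500 genes and under 20% mitochondrial UMIs were kept, 13 mitochondrial genes were removed, and cells were integrated with SCTransform in Seurat 5.3.0. No doublet caller was run. A cluster was named where at least 3 of its markers were 1.5-fold above the mean of the other clusters. Counts were summed per class and library and tested in edgeR 4.0.16 (quasi-likelihood, TMM factors, genes filtered by filterByExpr) at a Benjamini-Hochberg adjusted p of 0.05, and DESeq2 1.42.0 was an alternative. The fits were also run on simulated counts, in which far fewer genes differed than between the classes here, so that run gives no error rate for these comparisons. Library totals ran from 52074235 to 135009606 UMIs. All 10 genes are named, with up to 4 called genes per list in order of p. Similar genes had at least 5 CPM. The members and lists were chosen with earlier results of these data known. Comparisons of satellite glia with neurons, among glia, of NP2, SST and Trpm8 neurons, and of CCI within subtypes and in non-myelinating Schwann cells were added after the data were seen.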

Additional observations from a re-analysis of the deposited data

Results flagged for a closer look

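The CCI libraries lay on opposite sides of the CON libraries for Grik5 in the Schwann cell classes. In non-myelinating Schwann cells both CCI libraries (21.0 and 20.6 CPM) lay above both CON libraries (13.7 and 17.3), with a log2 ratio of means of 0.42. In myelinating Schwann cells both CCI libraries (14.5 and 14.8) lay below both CON libraries (15.6 and 22.6), with a log2 ratio of means of -0.38. Neither passed the edgeR test, and the difference between the classes was not tested. Summed over the libraries, Grik5 had 152 UMIs in non-myelinating and 169 in myelinating Schwann cells. How many of all genes had groups that did not overlap was not counted in these classes. In satellite glia that share was 30.4% of all genes tested.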

How the results depend on the processing

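Of 1868 values of the 10 genes under alternatives, 1677 kept their direction and their side of the threshold, 57 lost a call, 34 gained one and 100 changed sign, 67 of these with a library left out. Of 91 called values, 68 kept their call and direction in every alternative. For CCI in neurons, DESeq2 called 3 genes, no filter on low counts 4, the stricter cell filter (over 1000 genes, under 10% mitochondrial UMIs) 1 (5.47% of all genes), and leaving out a library 0 to 4. In NF2 neurons DESeq2 called 1 gene after CCI (2.34% of all genes), clusters without integration 0 (0.0592%), and leaving out a library 1 to 3 (3.59% to 4.6%). In NP1 neurons no filter on low counts called 1 gene (1.47% of all genes) and leaving out a library 0 to 1 (0.352% to 1.6%). The test of the CCI effect between subtypes called 1 gene, Grik1, without the filter (3.23% of all genes). Leaving out a library gave 4 to 6 calls in NP2 neurons, 5 to 8 in satellite glia against the other glia and 3 to 5 in myelinating Schwann cells, and clusters without integration gave 5 in satellite glia (44.4% of all genes). Leaving out the PEP1 cluster led by Mymk, an alternative chosen after seeing the data, ended the call of Gria2 in NP1 neurons and moved no count of calls by over 1 gene. The cause of these changes was not tested.

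Signs turned in differences near 0 or with the set of subtypes. With a library left out, the log2 fold change of CCI in neurons ran from -0.49 to 0.30 for Gria1, -0.42 to 0.029 for Grik2, -0.21 to 0.12 for Grik3 and -0.044 to 0.058 for Grik5, and that of Gria1 in CIP neurons from -0.26 to 0.0042. Grik5 in neurons was -0.022 with upper-quartile factors, -0.035 with the stricter cell filter and -0.012 with low-UMI barcodes added, and Gria1 in CIP neurons was 0.12 without the cluster led by neutrophil genes. With subtypes of at least 10 cells, Gria1 was 0.30 and Grik1 0.22 in NF2 neurons, and Gria1 was 0.026 in cLTMR1 neurons.

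The replicate block, which pairs libraries of the same number, called 4 genes in neurons after CCI (Gria2, Gria3, Gria4 and Grik1), 4 in NF2 neurons and 1 in NP1 neurons, where it called 11.2%, 6.77% and 3.47% of all genes. Deviations of the replicate 1 libraries from their group means correlated at 0.53 over 6891 genes, but with 2 pairs and no shared animal or day in the labels the libraries share only a number. With 2 libraries a group, and few UMIs for Grik2 and Grik3 in neurons, small differences could have been missed.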

Other observations

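Neurons of 2 clusters were left without a subtype name, although their markers came closest to NF2 in one (209 cells) and PEP1 in the other (123 cells). The first had low UMI counts and no NF2 marker among its 10 leading genes, and the second was led by the satellite glia genes Apoe and Fabp7. Summed over both clusters, Gria2 was at 131, 87.4, 89.5 and 36.1 CPM and Gria1 at 67.4, 32.2, 39.1 and 43.2. Gria3 was at 31.7, 35.4, 33.7 and 19.3 and Gria4 at 34.2, 26.0, 38.7 and 12.9. No test was made on these cells.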
